A study of Mus musculus with 2 samples.

Results

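Cells carrying transcripts of Epx, which encodes eosinophil peroxidase, were examined in lineage-depleted mouse bone marrow. A cell was counted as Epx-positive when Epx made up at least 10 of every 10000 unique molecules (UMIs) counted in it, and when under 20% of its UMIs came from mitochondrially encoded genes. That rule gave 87 of 10342 cells, of which 68 lay among the 6392 cells of the hypoxia library and 19 among the 3950 cells of the control library. The hypoxia library came from mice of the ICR stock, an outbred laboratory stock, aged 7 to 8 weeks by the labels, that were held in an altitude chamber for 13 days at a pressure of 52.93 kPa, given as the equivalent of 5000 m, and an oxygen content of 19.5%. The control library came from ICR mice of the same stated age that were killed on arrival. In both groups magnetic beads removed lineage-positive marrow cells, and the rest were captured with BD Rhapsody, which counts transcripts at their 3' ends, so that a UMI stands for a single transcript whatever its length. Each group had 1 library, the sources used here do not give the number of mice in each, and time since arrival and handling differed between the groups along with the chamber, so these cannot be told apart. No difference between the libraries could therefore be tested, and every interval below is a 95% interval for counting error only, which leaves out variation between cells and animals.

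Eosinophils are granulocytes that mature in the marrow under interleukin 5, a cytokine read by a receptor whose specific chain is encoded by Il5ra. Their granules store major basic protein (encoded by Prg2), its homologue (Prg3), eosinophil peroxidase and ribonucleases of the eosinophil-associated Ear family, and most of these proteins are made early, while the cell is still a progenitor. GATA-1, C/EBP proteins including C/EBPε, and PU.1 govern the commitment of the lineage, and Siglec-F and the eotaxin receptor Ccr3 mark later cells in the mouse.

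Epx-positive cells made up 1.06% of the hypoxia library (exact Clopper-Pearson interval 0.827 to 1.35%) and 0.481% of the control library (0.290 to 0.750%). The rule read Epx itself, and the lineage depletion and the cell calling that preceded the deposit can both set such a share. When each cell was thinned to 5000 UMIs and shallower cells were left out, 38 hypoxia cells (0.649%) and 16 control cells (0.439%) met the rule, with 30 and 3 members too shallow to enter. The limit fell in a gap. The member nearest to it had 19.4 Epx UMIs per 10000 in hypoxia and 16.1 in control, while the nearest cells outside had 7.5 and 5.47. Low Epx counts also occurred outside the limit, with at least 1 Epx UMI in 235 hypoxia and 47 control cells that were not members.

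The members were shallower than the marrow around them. They held a median of 5606.5 UMIs in the hypoxia library (1381 to 35032) and 9200 in the control library (3234 to 42808), against 21708 and 32393 in the other cells. Summed over members this gave 487329 and 213130 UMIs, of which the deepest single cell supplied 7.19% and 20.1%. In each library the deepest member was also the one with the least Epx. Doublet calling with Scrublet marked 112 hypoxia cells (1.75%) and 36 control cells (0.911%), among them the deepest hypoxia member, which carried 182 UMIs of the erythroid carbonic anhydrase Car2. It was kept. A gene of another lineage reached 10 per 10000 in 6 hypoxia members (the basophil protease Mcpt8 in 4, Elane in 1, Car1 in 1) and in 2 control members (Elane in both). The 2 libraries shared 23 cell barcodes, 1 of them held by a member, and no barcode belonged to a member in both.

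The label was checked against eosinophil markers that the rule did not read. Prg2 and Prg3 were detected in all 68 hypoxia and all 19 control members, and Il5ra in 36 and 14. In cells chosen by the erythroid gene Car1, by contrast, Prg3 was present in 0.420% of hypoxia and 0.203% of control cells, at a median of 27339 UMIs per cell in hypoxia and 41556 in control, and Il5ra in 0.140% and 0.102%. In cells chosen by the neutrophil elastase gene Elane, Prg3 was present in 2.68% and 2.26% and Il5ra in 0.716% and 0.377%. Prg2 was less specific, with a UMI in 1144 of 6324 hypoxia and 168 of 3931 control cells outside the members, against 45 and 14 for Prg3. Free RNA was not measured. Siglecf was found in 37 of 68 hypoxia and 9 of 19 control members, although the cells chosen by Elane also carried it, in 26.5% and 38.5% of cells, at median depths of 24726 and 31337 UMIs. Ccr3 was found in 2 hypoxia members and in 0 of 19 control members, which allows a share of up to 15.8% with a UMI. No member had more than 1 Ccr3 UMI, so this limits detection and not the share of cells that express the gene. Alox15, the eosinophil 12/15-lipoxygenase, was found in 17 and 3 members. Neutrophil secondary granule genes were nearly absent, with 58 of 68 hypoxia and 16 of 19 control members holding none of the 12 genes of that list and Ltf, Camp and Ngp at 0 in both libraries. These markers went with the label of eosinophil-lineage cells, with Ccr3 the one least often seen.

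Prg2 was the most abundant transcript followed here, and it was higher in the hypoxia members. It took a median of 16.5% of a cell's UMIs in hypoxia members (1.62 to 25%) and 10.3% in control members (1.37 to 18.0%). Of the 68 hypoxia members, 57 lay above the control median and 26 above the highest control member, so the groups overlapped. Summed over members, Prg2 stood at 126929 CPM (UMIs per 1000000 UMIs of the members) in hypoxia and 72632 CPM in control members, a ratio of 1.75 (interval 1.72 to 1.78). Its log2 ratio, hypoxia over control with 10 CPM added to both, was 0.81. With each cell thinned to 5000 UMIs and shallower cells left out, that log2 ratio was 0.55, which is short of 1.5-fold. Epx, which chose the cells, averaged 8563 and 6620 CPM, with a median of 105.8 per 10000 (19.4 to 220.2) in hypoxia and 84.8 (16.1 to 113.0) in control members. Prg3 did not follow Prg2. It stood at 2407 CPM in hypoxia and 2398 CPM in control members, a ratio of 1.0 (0.904 to 1.12), and medians of 26.6 and 24.1 per 10000. Prg2 and Prg3 are neighbours on chromosome 2 of GRCm38, on the plus strand from 84980461 to 84983632 and from 84988215 to 84993886, and Epx lies on chromosome 11 from 87864000 to 87875536 on the minus strand. Because 1 abundant transcript takes a share of every total, all comparisons were repeated with totals that leave the granule genes out, as given below.

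**Figure D1:**
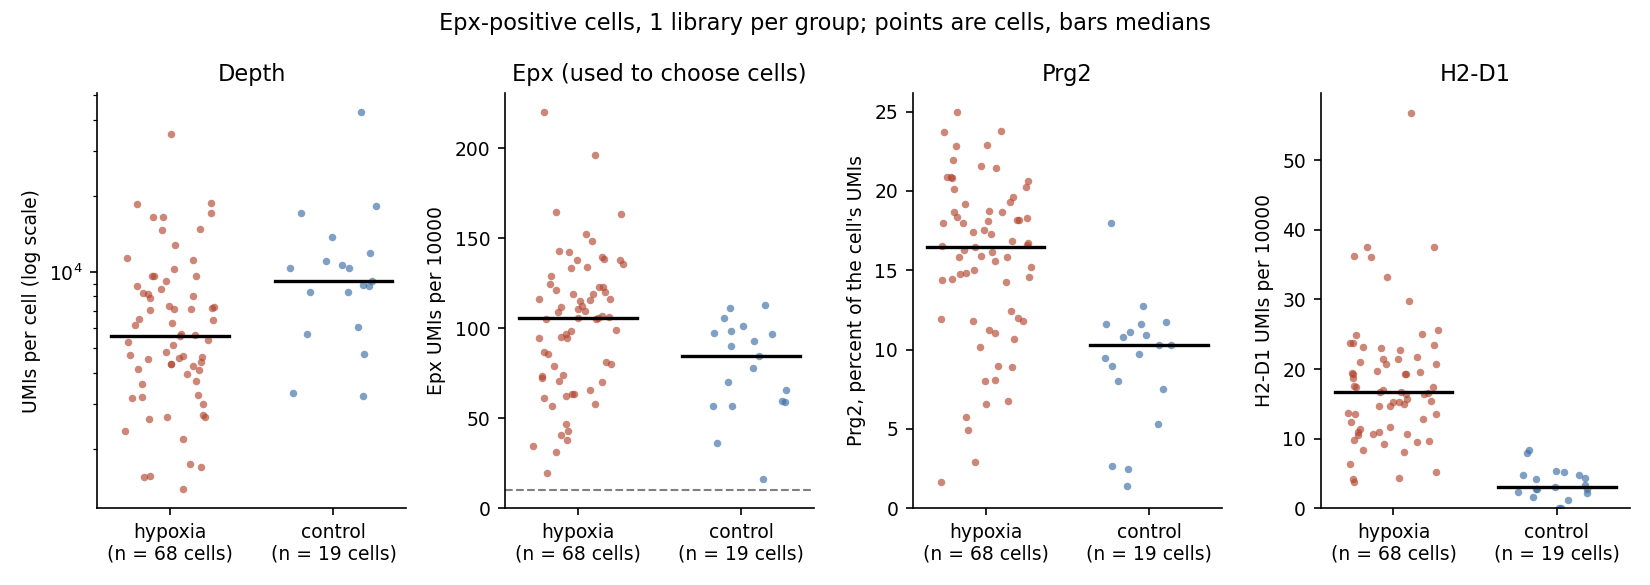
Epx-positive cells of the hypoxia library (left in each panel) and the control library (right), with UMIs per cell on a log axis, Epx and H2-D1 in UMIs per 10000, and Prg2 as a percent of the cell's UMIs. Points are cells, bars are medians, and the dashed line is the Epx limit of 10. Prg2 medians were 16.5% and 10.3% with overlapping ranges, and H2-D1 was above the highest control member in 61 of 68 hypoxia members.

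Among the granule genes, Ear1 and Ear10 differed most between the libraries. Ear1 was the leading member of the family in hypoxia members and low in control members, Ear10 showed the reverse, and Ear2 was lower in hypoxia members. Ear1 had a median of 60.4 per 10000 in hypoxia members (0 to 177.8) and 2.19 in control members (0 to 5.66), and 65 of 68 hypoxia members lay above the highest control member. Summed, it reached 5569 CPM from 2714 UMIs in hypoxia and 221 CPM from 47 UMIs in control members, a ratio of 25.3 (18.9 to 34.5). Ear10 was detected in 4 of 68 hypoxia members, never with more than 1 UMI, and in 18 of 19 control members, with a median of 33.6 and a maximum of 111.1 per 10000. It stood at 8.21 and 2876 CPM, from 4 and 613 UMIs. Ear2 was found in 64 of 68 hypoxia members at a median of 26.5 per 10000 (0 to 95) and in all 19 control members at 94.4 (8.70 to 131.5), with 2405 and 7606 CPM (ratio 0.316, 0.293 to 0.341). Ear6 was alike in level, at 3047 CPM in hypoxia and 3153 CPM in control members, with a ratio of 0.966 and an interval of 0.882 to 1.06.

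Summed over the family, the gap was smaller than for any of Ear1, Ear2 or Ear10 alone. All Ear genes together gave 11032 CPM in hypoxia and 13869 CPM in control members. Ear1 supplied 50.5% of the family's UMIs in hypoxia members, Ear6 27.6%, Ear2 21.8% and Ear10 0.0744%. In control members Ear2 supplied 54.8%, Ear6 22.7%, Ear10 20.7% and Ear1 1.59%. Ear1 and Ear2 were mostly found in the same hypoxia cells, although 4 of the 47 hypoxia members with at least 20 Ear1 UMIs had at most 2 Ear2 UMIs. Across members, Ear1 and Ear2 per 10000 had a Spearman's rho of 0.37 over the 68 hypoxia members and 0.58 over the 19 control members, as a description of cells of 1 library that share its depth.

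Ear1 and Ear10 differed in the same directions in the rest of the marrow, and Ear2 did not. Outside the members, Ear1 had 4125 UMIs in hypoxia and 22 in control, while Ear10 had 2 and 287. Ear2 had 1364 and 521 UMIs there, at 9.96 and 4.30 CPM, which is higher in hypoxia. Much of the Ear1 and Ear10 signal lay in cells chosen by Mcpt8, the basophil protease, where Ear1 was detected in 24.5% of 624 hypoxia cells and 4.92% of 244 control cells and Ear10 in 0.321% and 13.9%. Ear6 was detected there in 0.160% and 1.64% of cells, and Prg3 in 0.481% and 1.23%. Epx itself was found in 19.6% and 10.2% of these cells, with at most 5 and 3 UMIs in any of them.

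Gm8113, a gene annotated as protein-coding beside Ear10, followed Ear1. It gave 437 UMIs in 49 of 68 hypoxia members and 0 UMIs in the 19 control members. The exact interval of its ratio began at 51.6, while a floor of 3 counts over the control members gave 63.7-fold. Outside the members it had 578 UMIs in hypoxia and 2 in control. On GRCm38, Ear1 lies on chromosome 14 from 43818765 to 43875517 on the minus strand, Ear10 from 43922720 to 43923559 on the minus strand, Gm8113 from 43925390 to 43933411 on the plus strand and Ear2 from 44102654 to 44103534 on the plus strand. The starts of Gm8113 and Ear10 are 1830 bases apart. Ear6 lies apart on the same chromosome, from 51853699 to 51854643 on the plus strand.

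The transcripts of these genes are close to identical, which bears on how reads were divided among them. The annotated transcripts of Ear1 and Ear2 matched at 96.8% of aligned bases, with a longest shared run of 96 bases, those of Ear2 and Ear10 at 94.7% (185 bases) and those of Ear1 and Ear10 at 93.3% (114 bases). Ear6 matched the others at 87.9 to 89.2%. The split of UMIs among Ear1, Ear2 and Ear10 is therefore uncertain, and animals that carry different copies, the mapping of reads to near-identical copies and the chamber cannot be told apart with 1 library each.

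The 250 bases before each RefSeq start on GRCm38.p6 are shown so that the near-identity of genes with unlike levels can be read directly. Each runs 5' to 3' on the gene's own strand. The windows are chr14:43819640-43819889 (minus strand) for Ear1, chr14:44102404-44102653 (plus) for Ear2, chr14:43923597-43923846 (minus) for Ear10 and chr14:51853518-51853767 (plus) for Ear6. Capitals mark bases that differ from the aligned Ear1 window, insertions included. The starts of RefSeq and of the GENCODE positions above agree for Ear2 and differ for Ear1, Ear6 and Ear10. The Ear1 window therefore lies inside the longer GENCODE gene, and the Ear6 window runs past the GENCODE start.
Ear1: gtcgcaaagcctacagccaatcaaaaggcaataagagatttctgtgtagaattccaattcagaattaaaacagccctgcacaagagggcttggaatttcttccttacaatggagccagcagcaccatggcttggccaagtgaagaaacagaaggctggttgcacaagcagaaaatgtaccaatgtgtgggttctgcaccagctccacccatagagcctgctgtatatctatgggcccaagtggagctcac
Ear2: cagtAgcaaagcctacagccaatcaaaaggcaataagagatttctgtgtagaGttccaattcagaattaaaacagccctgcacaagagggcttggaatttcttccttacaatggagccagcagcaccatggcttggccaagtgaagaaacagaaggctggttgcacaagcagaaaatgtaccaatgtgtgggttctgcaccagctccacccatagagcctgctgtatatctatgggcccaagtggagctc
Ear10: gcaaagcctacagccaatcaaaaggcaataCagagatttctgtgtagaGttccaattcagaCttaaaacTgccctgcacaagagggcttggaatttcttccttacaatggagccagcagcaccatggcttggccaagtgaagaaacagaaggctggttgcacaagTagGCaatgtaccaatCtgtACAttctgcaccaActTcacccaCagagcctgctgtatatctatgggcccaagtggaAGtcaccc
Ear6: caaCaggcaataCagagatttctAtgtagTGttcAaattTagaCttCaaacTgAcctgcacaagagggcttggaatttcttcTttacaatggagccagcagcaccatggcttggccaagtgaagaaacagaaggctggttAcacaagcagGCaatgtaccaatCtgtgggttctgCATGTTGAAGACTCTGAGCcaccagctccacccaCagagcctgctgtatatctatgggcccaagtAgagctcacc
Capitals numbered 2 in Ear2, 16 in Ear10 and 37 in Ear6, and the windows of Ear1 and Ear2 matched at 99.2% of aligned bases, against 93.9% for Ear1 and Ear10 and 92.6% for Ear1 and Ear6. The letters GATAA were in none of the 4 windows on either strand, while 22.6% of 32851 mouse promoter windows of that length held them. The letters TTNNGNAA were found 1 time in each of the 4, and in 36.85% of all windows. Such matches describe letters and say nothing of whether a factor binds.

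**Figure D2:**
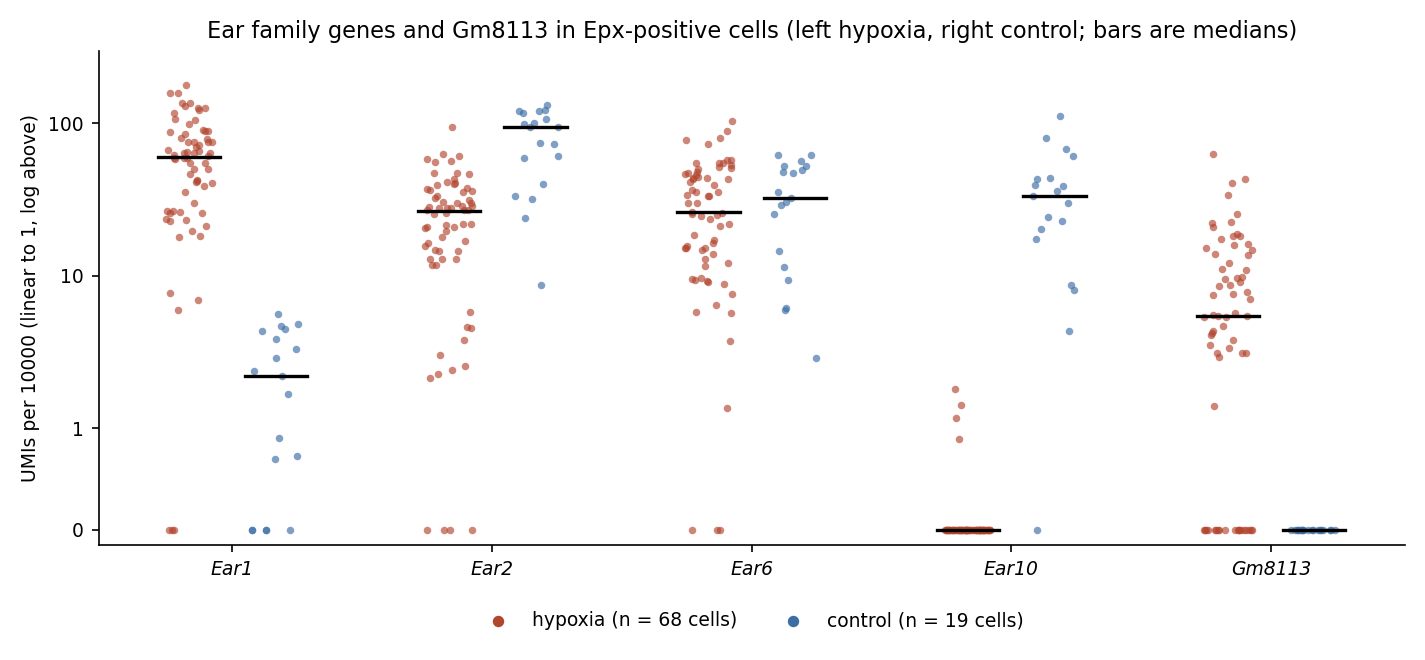
UMIs per 10000 (linear to 1, logarithmic above) of Ear1, Ear2, Ear6, Ear10 and Gm8113 in each Epx-positive cell, hypoxia left and control right, with medians as bars. Ear1 and Gm8113 were high in hypoxia members, Ear10 in control members, and Ear6 overlapped, with medians of 26.2 and 32.4.

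Receptors and surface proteins of eosinophils were mostly level or somewhat higher in hypoxia members. Of the 24 genes of that list, 9 had at least 50 UMIs over the members of both libraries, the minimum for comparison. Of these, 4 were at least 1.5-fold higher in hypoxia members and 0 were lower, with a median log2 ratio of 0.43, where 11.7% of all 2471 genes compared were higher by that measure and 9.67% lower, with a median of 0.03. Log2 ratios are hypoxia over control with 10 CPM added to both. In the other cells the same 9 genes had a median of 0.45, so the shift was not particular to the members. Itga4, the α4 integrin chain that binds Vcam1, stood at 299.6 CPM in hypoxia and 136.1 CPM in control members (ratio interval 1.47 to 3.40). Il1rl1, the interleukin 33 receptor, stood at 143.6 and 65.7 CPM (1.22 to 4.20), and Cd24a at 724.4 and 464.5 CPM (1.24 to 1.97). Siglecf stood at 131.3 and 75.1 CPM, from 64 and 16 UMIs (1.0 to 3.24), and its log2 ratio of 0.73 was 0.50 without the deepest member of each library and 0.097 at 5000 UMIs per cell. Il5ra had 121.1 CPM in hypoxia and 136.1 CPM in control members (0.561 to 1.44). Kit, the stem cell factor receptor, had 190.8 and 206.4 CPM, and Csf2rb, the shared chain of the interleukin 5, interleukin 3 and GM-CSF receptors, 168.3 and 122.0 CPM. Cd34, a progenitor surface protein, had 260.6 and 192.4 CPM and Csf2ra, the GM-CSF receptor's own chain, 139.5 and 126.7 CPM. The intervals of these 4 held a ratio of 1.

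Lineage regulators were close to level. Of 18 genes, 10 could be compared, 2 were at least 1.5-fold higher and 0 lower in hypoxia members, and the median log2 ratio was -0.03. The shares over all genes compared were 11.7% higher and 9.67% lower. Cebpe, which encodes C/EBPε and drives the making of granule proteins, stood at 268.8 CPM in hypoxia and 380.1 CPM in control members (ratio interval 0.532 to 0.945) and was found in 50 of 68 and 18 of 19 cells. Its per-cell values overlapped, with medians of 2.86 and 3.74 per 10000. Trib1, a pseudokinase needed for normal eosinophil identity in mice, had 236.0 and 262.8 CPM, and Myb, a progenitor transcription factor, 2124 and 2322 CPM, in all members of both libraries. Spi1, which encodes PU.1, had 94.4 and 140.8 CPM (0.414 to 1.10). Gfi1, Runx1, Xbp1 and Cebpa, also transcription factors, had 127.2 and 131.4, 119.0 and 112.6, 123.1 and 122.0, and 73.9 and 75.1 CPM in hypoxia and control members. Gata1 stood at 168.3 CPM in hypoxia and 84.5 CPM in control members, from 82 and 18 UMIs (1.19 to 3.53), in 40 of 68 and 9 of 19 cells, and its log2 ratio of 0.92 was 0.53 without the deepest members. Gata2 stood at 129.3 and 70.4 CPM, but 49.2% of its hypoxia UMIs came from 1 cell. Without the members that carried another lineage's gene, its log2 ratio was -1.41, against 0.79 for all members.

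**Figure D3:**
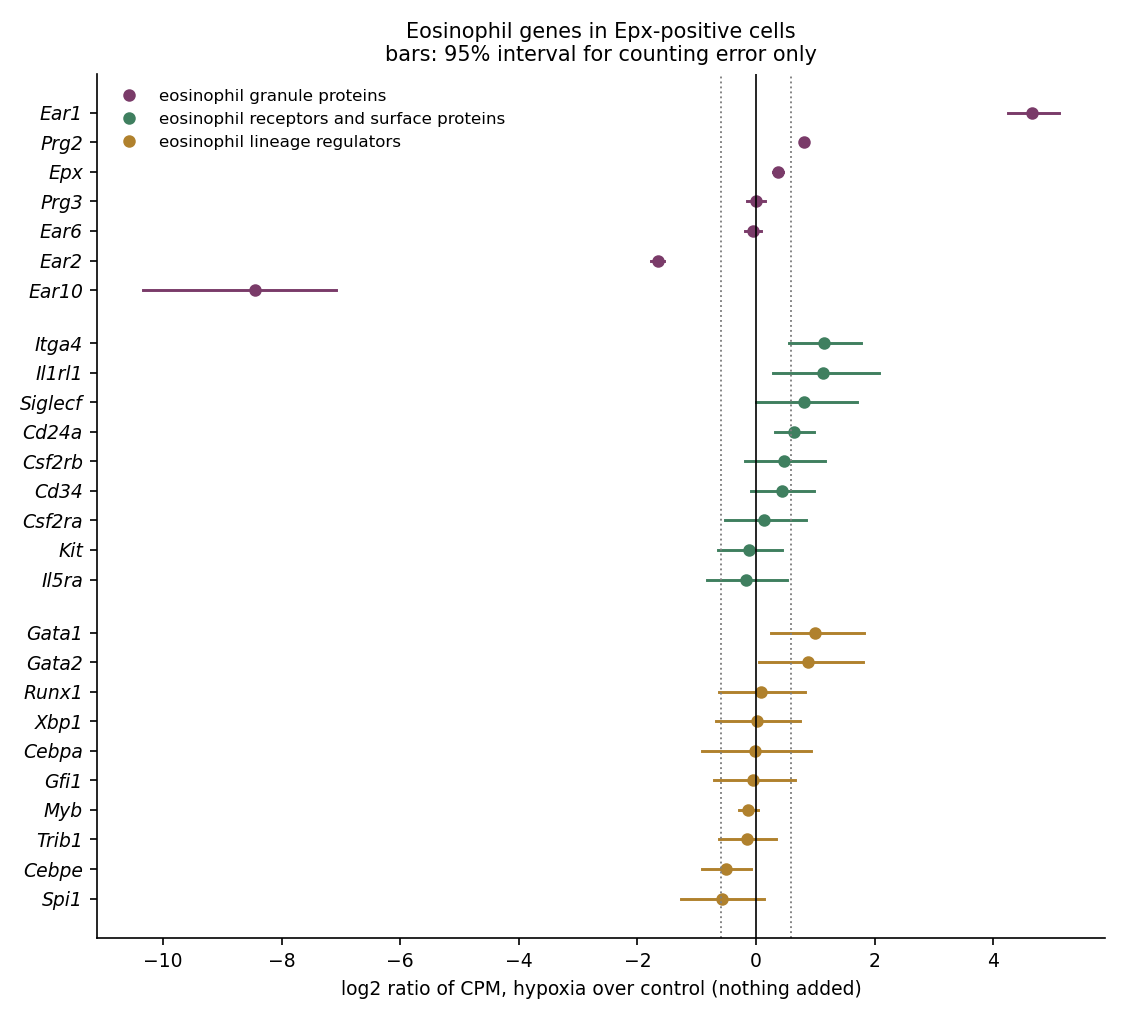
Log2 ratio of CPM, hypoxia over control, for the eosinophil genes with at least 50 UMIs, without an added constant, in 3 groups. Bars are 95% intervals for counting error only, and dotted lines mark 1.5-fold. Ear1 and Ear10 lie farthest apart, at ratios of 25.3 and 0.00285, while Prg3, Ear6, Il5ra and Myb lie near 0.

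Transcripts that stood out from the other cells of both libraries were read next, as a description, since the same counts chose the cells. Ranked by the lower of the 2 libraries' log2 ratios over all other cells, with 10 CPM added, the first 6 were Prg2 (12.43 in hypoxia and 12.53 in control), Epx, Ear6 (8.21 and 8.27), Prg3 (7.86 and 7.87), Ear2 and Ear1. Cebpe followed (4.33 and 4.77), then Gapt, a membrane adaptor of blood cells (4.18 and 4.50), Trib1, and Rab44, a large Rab GTPase tied to granule release in mouse mast cells (3.76 and 3.77). Rab44 was found in every member of both libraries. Cd63, a tetraspanin of granule membranes, was also found in every member, at 1650 CPM in hypoxia and 1539 CPM in control members. Il17rb, a chain of the interleukin 25 receptor, stood at 186.7 and 140.8 CPM in members, against 3.33 and 3.0 CPM in the other cells. The rest of the first 20 were Vcam1, Il5ra, Ldhc, Arsb, Tent5a, Sun2, Eml5 and Ankrd28.

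Vcam1, the adhesion molecule that α4 integrins bind, differed between the libraries within this set. It was found in 58 of 68 hypoxia members at a median of 7.37 per 10000 (0 to 55.5) and in 10 of 19 control members at a median of 0.467 (0 to 18.0), and 18 hypoxia members exceeded the highest control member. Summed, it stood at 773.6 CPM from 377 UMIs in hypoxia and 206.4 CPM from 44 UMIs in control members, a ratio of 3.75 (2.74 to 5.24). In the other cells it stood at 3.13 CPM in the hypoxia and 6.2 CPM in the control library, which is lower in hypoxia. Vcam1 per 10000 had a rho of -0.55 with UMIs per cell over the 68 hypoxia members and -0.31 over the 19 control members, and at 5000 UMIs per cell its log2 ratio was 1.16, against 1.86 for all members. Of the other genes in the set, Ldhc, a lactate dehydrogenase best known from testis, stood at 117.0 and 244.0 CPM (ratio interval 0.323 to 0.712).

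Over all 2471 genes compared, 289 (11.7%) were at least 1.5-fold higher and 239 (9.67%) at least 1.5-fold lower in hypoxia members. Counts of higher and lower genes in every list are to be read against these shares. With the granule genes left out of the totals, 388 were higher and 181 lower, so that higher genes made up 68.2% of those past 1.5-fold, against 54.7%, and the median log2 ratio of all genes was 0.11. Of the 7 granule genes compared, Prg2 and Ear1 were higher and Ear2 and Ear10 lower. The genes named next are among the 12 highest and 12 lowest among those well spread over cells, by a rule that asks for a UMI in 25% of the members of the higher library and under 25% of the UMIs from 1 cell.

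Beyond Ear1 and Gm8113, the highest included the long non-coding RNA Gm47015, Ms4a6c, Gm10320, Coro2a, H2-D1, Sh3glb1, Ccl9, Fgf3 and Hcfc1. Gm47015 gave 100 UMIs in 37 of 68 hypoxia members and 0 in the control members. Ms4a6c, of the membrane-spanning 4-domain family, stood at 168.3 CPM in hypoxia and 9.38 CPM in control members, from 82 and 2 UMIs. Gm10320 stood at 155.9 and 14.1 CPM and Coro2a, a coronin that binds actin, at 102.6 and 9.38 CPM. Several of these differed between the libraries in the other cells too. There, Ms4a6c stood at 98.0 CPM in hypoxia and 11.7 CPM in control, Gm10320 at 80.4 and 6.22 CPM, Coro2a at 38.3 and 5.83 CPM and Gm47015 at 20.8 and 1.02 CPM. Others did not differ by that much outside the members. Sh3glb1 stood at 121.1 and 18.8 CPM in members and at 349.7 and 297.9 CPM in the other cells. Hcfc1, a transcriptional coregulator, stood at 151.9 and 32.8 CPM in members and 166.8 and 151.0 CPM outside. Fgf3, a fibroblast growth factor, stood at 121.1 CPM in hypoxia and 23.5 CPM in control members, from 59 and 5 UMIs, and at 3.79 and 3.57 CPM in the other cells. The difference between members and other cells in these ratios was not tested.

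Ccl9, a chemokine of myeloid cells, was found in 54 of 68 hypoxia members at a median of 4.80 per 10000 (0 to 23) and in 8 of 19 control members at a median of 0 (0 to 7.71). It stood at 656.6 CPM in hypoxia and 145.5 CPM in control members (ratio 4.51, 3.12 to 6.76), and at 208.5 and 56.1 CPM in the other cells. Of the 7 chemokine genes listed, 4 could be compared, 1 higher and 1 lower. The lower one was Ccl4, at 119.0 and 408.2 CPM, which came from 3 cells in each library, 93.1% of it in hypoxia from a single cell. The median log2 ratio of the list was -0.27, and 0.27 at 5000 UMIs per cell. Without the deepest, doublet and other-lineage members it was -1.24, with 1 higher and 3 lower of 4.

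Ear10, Cwc22, the unnamed transcript AC149090.1, Emb, Ear2, Anxa1, Rpl30, Mrfap1, Prpf4b, Mrpl51, Rpl27-ps3 and Bud31 were lowest in hypoxia members. Cwc22, a splicing factor, was found in 8 of 68 hypoxia members and 15 of 19 control members, at 18.5 and 262.8 CPM, and stood at 54.6 and 216.8 CPM in the other cells. Emb, the surface protein embigin, had a median of 0 per 10000 in hypoxia members (0 to 7.44) and 6.52 in control members (0 to 13.4), at 178.5 and 638.1 CPM (ratio 0.28, 0.211 to 0.369), while the other cells had 300.5 and 248.6 CPM. Anxa1, which encodes the glucocorticoid-responsive protein annexin A1, was found in 29 of 68 hypoxia and 16 of 19 control members, at 168.3 and 516.1 CPM (ratio 0.326, 0.242 to 0.438), and at 120.5 and 70.1 CPM in the other cells. The ribosomal protein gene Rpl30 stood at 753.1 and 1783 CPM. Of 79 ribosomal protein genes, a list added after these values were seen, 17 were lower and 0 higher, with a median log2 ratio of -0.30. Among all genes compared, 9.67% were lower and 11.7% higher.

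**Figure D4:**
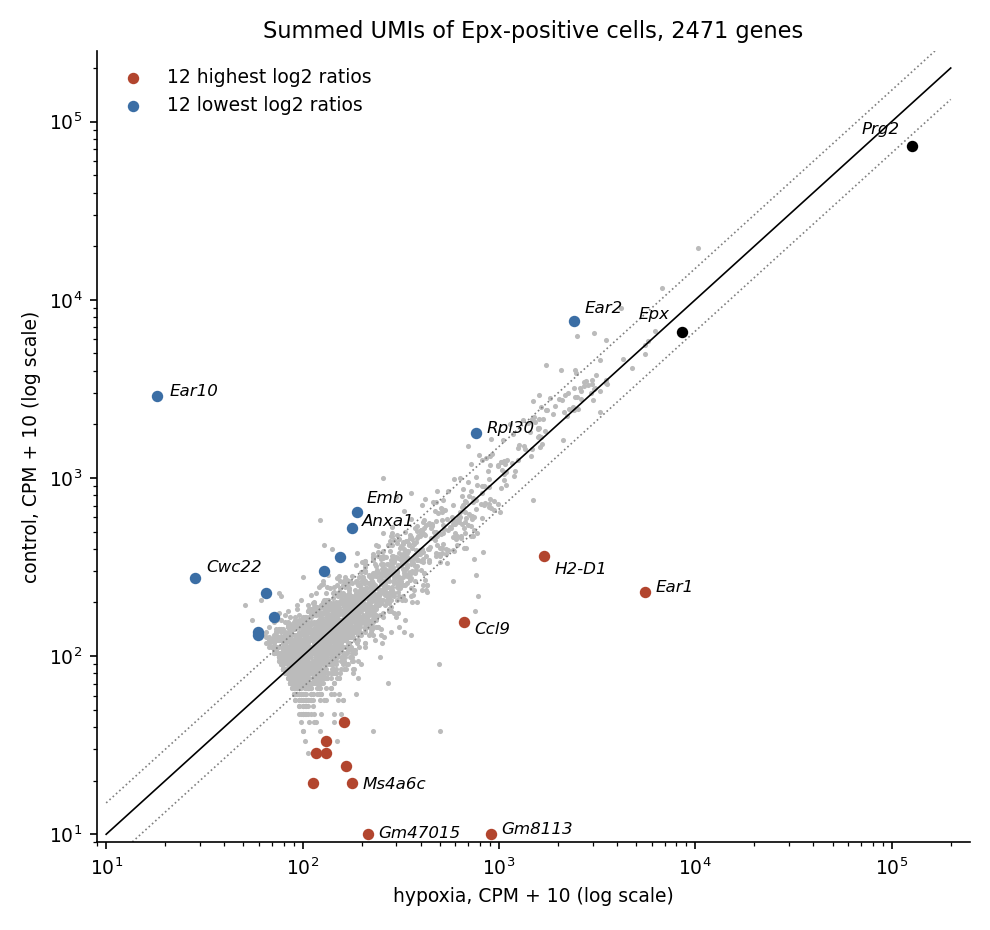
CPM plus 10 in hypoxia members (x axis) and control members (y axis), both logarithmic, for the 2471 genes compared. The solid line marks equal levels, dotted lines 1.5-fold, and colours the 12 highest and 12 lowest ratios by the naming rule. Ear1, Gm8113 and H2-D1 lie to the right, at 5569, 896.7 and 1697 CPM in hypoxia members, and Ear10 and Cwc22 to the left.

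Primary granule genes, which neutrophil progenitors and early eosinophil progenitors both transcribe, were lower in hypoxia members. Of 8 genes, 7 could be compared, of which 6 were at least 1.5-fold lower and 0 higher, with a median log2 ratio of -0.96, against 0.38 for the same genes in the other cells. Mpo, the myeloperoxidase gene, had a median of 12.3 per 10000 in hypoxia members (0 to 76.2) and 24.1 in control members (6.18 to 94.3), with 2062 and 4016 CPM (ratio interval 0.468 to 0.563). Srgn, the proteoglycan core that packs granules, stood at 2444 and 4026 CPM. Elane and Prtn3, both neutrophil serine proteases, stood at 112.9 and 567.7 CPM and at 246.2 and 985.3 CPM, but the deepest control member held 66.1% and 76.2% of their control UMIs. Without the deepest member of each library the log2 ratios were -0.64 for Mpo, -0.95 for Elane, -0.16 for Prtn3 and -0.42 for Srgn, and the median of the list was -0.42. Summed over the list, a cell held a median of 40.7 per 10000 in hypoxia (6.85 to 177.9) and 68.4 in control members (21.6 to 219.3), with Bpi at 0 in both.

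Of the genes of the secretory pathway and the unfolded protein response, 19 of 24 could be compared. In hypoxia members 8 were lower, 1 was higher and 10 lay within 1.5-fold, with a median log2 ratio of -0.52, against -0.21 in the other cells. Hspa5, the chaperone BiP of the endoplasmic reticulum, stood at 1490 CPM in hypoxia and 2693 CPM in control members (ratio interval 0.495 to 0.618), Sec61b, a subunit of the translocation channel, at 408.4 and 750.7 CPM, and Sdf2l1, a cofactor of BiP, at 65.7 and 215.8 CPM. Calr, the calcium-binding chaperone calreticulin, stood at 3267 and 4593 CPM, short of 1.5-fold. The higher one, named after its value was seen, was Herpud1, which takes part in degradation of misfolded proteins, at 418.6 and 239.3 CPM. Heat-shock chaperones of the cytosol gave 5 lower and 0 higher of 12, with a median of -0.47, and this was smaller than the -0.93 of the same genes in the other cells, a gap that was not tested. Hsph1 stood at 45.1 and 150.1 CPM and Hsp90aa1 at 810.5 and 1253 CPM.

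Of 18 genes of MHC class I and peptide loading, 6 could be compared, with 3 higher and 0 lower and a median log2 ratio of 0.51, against 0.74 in the other cells. H2-D1, a class I heavy chain gene on chromosome 17 from 35262730 to 35267499, was detected in all 68 hypoxia members at a median of 16.7 per 10000 (3.69 to 56.8) and in 17 of 19 control members at 3.0 (0 to 8.40). Every hypoxia member exceeded the control median. Summed it stood at 1697 and 356.6 CPM (ratio 4.76, 3.76 to 6.10), and in the other cells at 1168 and 271.4 CPM. H2-K1 stood at 751.0 CPM in hypoxia and 276.8 CPM in control members (2.06 to 3.64) and B2m, the shared light chain, at 1003 and 638.1 CPM (1.30 to 1.92). With 1 library each, the animals in a library and the chamber cannot be told apart. The interferon response list gave 0 higher and 0 lower of 2 compared, with Ly6e at 1198 and 1084 CPM, and its median log2 ratio was 0.35, but -0.16 without the members that carried another lineage's gene.

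Basophil and mast cell genes were higher in hypoxia members, but this rested on a few cells. Of 7 genes compared, 4 were at least 1.5-fold higher and 0 lower. Their median log2 ratio was 1.11, against 1.35 for the same genes in the other cells. Mcpt8 stood at 744.9 CPM in hypoxia and 168.9 CPM in control members and Prss34, another basophil protease, at 488.4 and 28.2 CPM, yet both had a median of 0 per cell in both libraries and 1 cell held 33.6% and 52.5% of their hypoxia UMIs. A cell's sum over the list had a median of 16.7 per 10000 in hypoxia (0 to 231.4) and 14.0 in control members (6.01 to 27.6). Without the 6 hypoxia and 2 control members that carried a gene of another lineage, the median log2 ratio of the list was -0.31. Hdc, the histidine decarboxylase of histamine synthesis, was spread more evenly. It was found in 66 of 68 hypoxia members at a median of 6.95 per 10000 (0 to 81.3) and in 18 of 19 control members at 3.59 (0 to 8.22), stood at 820.8 and 375.4 CPM, and kept a log2 ratio of 0.83 without those members. Erythroid genes gave 2 higher of 2 compared. Car2 stood at 484.3 and 79.8 CPM, with 77.1% of its hypoxia UMIs in the member called a doublet, and without that member its log2 ratio was 0.53, against 2.46, and the median of the list 0.73, against 1.75. Tfrc, the transferrin receptor, stood at 270.9 and 126.7 CPM. Markers of other cell types were sparse. Of 10 monocyte and dendritic genes none could be compared, and Ccr2, Siglech and Cd74 were at 0 in both libraries. Of the lymphoid list, Nkg7 alone could be compared, at 373.5 CPM in hypoxia and 492.7 CPM in control members. Of the megakaryocyte list, Itga2b alone, an integrin chain of platelets, could be compared, at 221.6 and 178.3 CPM, with Gp9 and Vwf at 0 in both. Ifitm1 was the one stem cell gene compared, and was higher, at 135.4 and 32.8 CPM from 66 and 7 UMIs. Its log2 ratio of 1.76 ranged from 0.39 to 2.01 over the alternatives. Without the deepest, doublet and other-lineage members no stem cell gene could be compared. The list then summed to 156.5 CPM in hypoxia and 182.1 CPM in control members.

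Most members held some UMI of a cell cycle gene, while 4 of 68 hypoxia and 0 of 19 control members held none of the S phase list, and 3 and 1 none of the G2/M list. Summed over the S phase list, a cell had a median of 10.9 per 10000 in hypoxia and 10.1 in control members. Of 8 G2/M genes compared, 3 were higher and 0 lower in hypoxia members, with a median log2 ratio of 0.51. Among all genes compared, 11.7% were higher and 9.67% lower. Ube2c, a ubiquitin-conjugating enzyme of mitosis, was found in 15 of 68 hypoxia and 2 of 19 control members, at 217.5 and 28.2 CPM (ratio interval 3.43 to 21.5), and Top2a, a topoisomerase of dividing cells, in 30 and 6 members, at 254.4 and 183.0 CPM (0.963 to 2.05). Both were higher in the other cells, with Top2a at 808.5 and 689.5 CPM. Of 13 S phase genes, 3 were higher and 1 lower, with Pcna, the sliding clamp of DNA replication, at 217.5 and 122.0 CPM. Their median log2 ratio was 0.15, but 0.73 without the deepest member of each library and 1.04 without the members that carried another lineage's gene. With these and the doublet left out together, 3 of the 4 genes still compared were higher and none was lower, and the median was 0.95. A single control member held 83.3% of the control Ube2c UMIs, and a single one 46.2% of those of Top2a. Of the survival genes, Bax, a trigger of apoptosis, stood at 96.4 and 18.8 CPM from 47 and 4 UMIs and Bak1 at 123.1 and 65.7 CPM, the 2 higher of 5 compared, with 0 lower.

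Genes tied to low oxygen could be compared only in part. Of 26 HIF targets, the genes switched on by hypoxia-inducible factors, 3 could be compared, with 0 higher and 0 lower. Vegfa, a vascular growth factor, stood at 78.0 CPM in hypoxia and 61.0 CPM in control members (ratio interval 0.666 to 2.62), Ero1l at 110.8 and 112.6 CPM (0.598 to 1.67) and Bnip3l at 158.0 and 168.9 CPM (0.622 to 1.43). A difference inside those intervals was not detectable at this depth. Of 11 glycolysis genes, 1 was higher and 2 lower, where 11.7% of all genes compared were higher and 9.67% lower. Their median log2 ratio was -0.25, and 0.088 without the deepest members. Pfkfb3, which promotes glycolysis, stood at 102.6 and 42.2 CPM (1.18 to 5.62), Gapdh at 348.8 and 577.1 CPM and Gpi1 at 270.9 and 464.5 CPM. Mitochondrially encoded genes, a list added after the values were seen, were lower in 10 of 11, with a median log2 ratio of -1.08, against 0.11 in the other cells. At 5000 UMIs per cell the median in members was -0.71. The share of a cell's UMIs from these genes had a median of 3.03% in hypoxia (1.01 to 9.13%) and 6.50% in control members (2.0 to 15.2%). With granule and mitochondrial genes both left out of the totals, 332 genes were higher and 222 lower, against 388 and 181 without granule genes alone. Beyond these counts, the part of the mitochondrial share in the other differences was not tested.

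The NADPH oxidase list gave 1 higher and 0 lower of 8, where 11.7% of all genes compared were higher and 9.67% lower. The higher one was Cybb, the catalytic subunit gp91phox, at 197.0 and 107.9 CPM (ratio interval 1.15 to 3.02). The median log2 ratio of that list was 0.36, against 0.51 for the same genes in the other cells, and -0.29 at 5000 UMIs per cell. Without the deepest, doublet and other-lineage members, 4 of the 8 were higher. Of the lipid mediator genes, Alox5ap, which presents arachidonic acid to 5-lipoxygenase, stood at 634.1 and 450.4 CPM and Lta4h, which makes leukotriene B4, at 625.9 and 595.9 CPM. Alox15 had 38 UMIs in hypoxia and 4 in control members, too few for comparison by the minimum of 50. Cytokine signalling genes gave 0 higher and 0 lower of 4, with Pim1, a STAT5 target kinase, at 147.7 and 187.7 CPM. Immediate early genes, which respond within minutes to handling and stimuli, gave 0 higher and 2 lower of 14, with Jun at 1014 and 1215 CPM and Dusp2 at 131.3 and 389.4 CPM.

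Members differed among themselves along the Prg2 share. Within each library, cells with more Prg2 had less of the primary granule genes. The sum of Mpo, Elane, Prtn3 and Ctsg had a Spearman's rho with the Prg2 share of -0.41 over the 68 hypoxia members and -0.52 over the 19 control members. The Prg2 share also went down with UMIs per cell, with rho of -0.74 and -0.63, and the primary granule sum went up, with 0.59 and 0.48. All 3 measures share each cell's depth and total, so these are descriptions without a test. Members were also split at a Prg2 share of 10%, a limit chosen after the values were seen, and scaled to totals without Prg2. In the hypoxia library the 58 cells above it had a median of 4761 UMIs and the 10 below it 15678.5. In the control library the 10 above had 8866.5 and the 9 below 11075.

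On that scale other granule genes went with Prg2 in both libraries. In hypoxia cells above and below the limit, Prg3 stood at 3538 and 1225 CPM, Ear6 at 4582 and 1350 CPM and Epx at 12550 and 4432 CPM. In control cells Prg3 stood at 4098 and 1795 CPM, Ear6 at 4482 and 2835 CPM and Epx at 9833 and 5731 CPM. Vcam1 was higher above the limit as well in hypoxia cells, at 1132 and 403.6 CPM. In control cells it stood at 294.8 and 184.9 CPM, from 20 and 24 UMIs, with overlapping intervals (180.1 to 455.4 and 118.5 to 275.1). Cebpe stood at 351.4 and 222.7 CPM in hypoxia cells and at 471.7 and 377.5 CPM in control cells, with overlapping intervals in each library. Mpo went the other way, at 2122 and 2832 CPM in hypoxia and 2314 and 5385 CPM in control cells. Below the limit, however, 1 cell held 34.6% of the Mpo UMIs in hypoxia and 1 cell 38.3% in control. Between the libraries, cells above the limit had 2122 CPM of Mpo in hypoxia and 2314 CPM in control (intervals 1956 to 2300 and 1967 to 2706). The gap over all members was larger, but it was taken on totals that include Prg2. It also included the deepest control member, which fell below the limit. Mcpt8 stood at 177.5 CPM above the limit and 2178 CPM below it in hypoxia cells, with 39.0% of the UMIs below it from 1 cell.

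**Figure D5:**
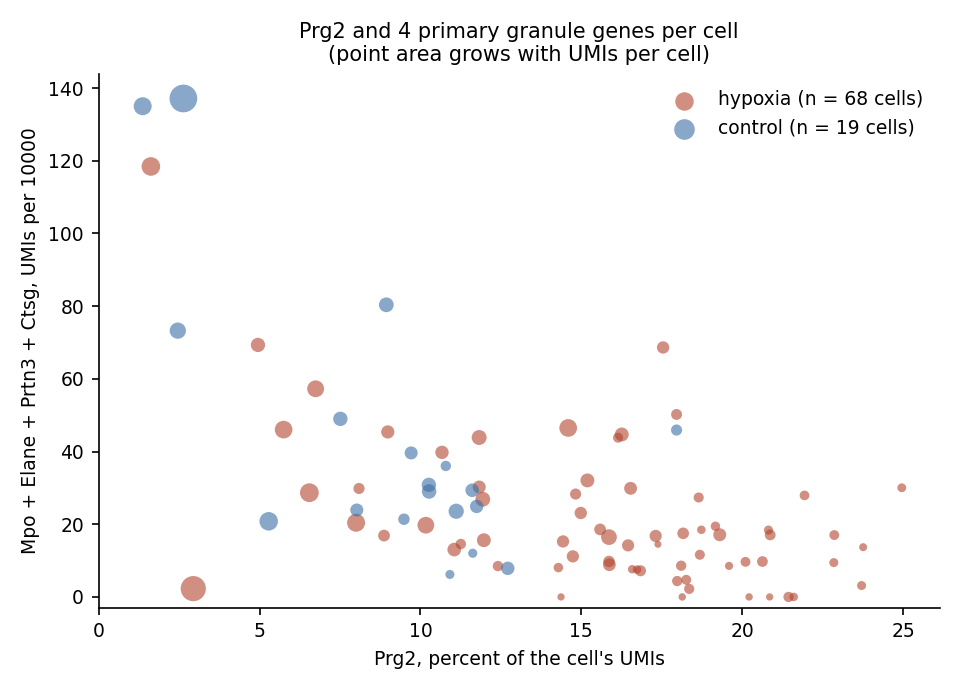
Prg2 share of each cell's UMIs (x axis, percent) against the sum of Mpo, Elane, Prtn3 and Ctsg (y axis, UMIs per 10000) in the 68 hypoxia and 19 control members. The area of a point grows with the cell's UMIs. The highest sums, 118.4 in hypoxia and 137.1 in control members, belong to cells with little Prg2, and cells with over 20% Prg2 are all from the hypoxia library.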

How the data were processed

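UMI counts per cell and gene were used as deposited by the authors, who had corrected them for substitution errors and had not normalized them. Per the file headers, they were made with version 1.7.1 of the BD WTA Rhapsody Analysis Pipeline, GRCm38 and GENCODE vM19. The submitters' processing notes name Bowtie2 as a tool. The sources used here do not give how cells were called. The tables held 6406 hypoxia and 3956 control cells, of which the limit of 20% mitochondrial UMIs removed 14 and 6. The Epx rule and the gene lists were chosen with earlier results of these data known.

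UMIs were summed over the members of a library and scaled to CPM by their total. A gene was compared when it had at least 50 UMIs over both libraries, and counted as higher or lower past 1.5-fold on the log2 scale with 10 CPM added, which understates low genes. With 1 library per group there was no test. Shares have exact Clopper-Pearson and CPM ratios exact conditional 95% intervals. Only the ratio intervals were run on simulated counts, drawn with counting error alone, as the intervals assume. That run checked the calculation and not variation between cells. Both kinds of interval cover counting error only. A count of 0 was read against 3 counts over the members. Named genes could be any of the 3 eosinophil lists, up to 4 of every other list (largest ratio and highest level), the 12 highest and 12 lowest ratios spread over cells with at least 50 CPM in 1 library, and the 20 genes highest over the other cells. A gene that this rule names is not reported here. Cells of other lineages were chosen by Elane, Mcpt8 or Car1 at 10 per 10000 or S100a8 at 50, with exactly 1 of these and Epx under the limit. Gene positions came from GENCODE vM21 on GRCm38. Python 3.11.15, scipy 1.17.1, Biopython 1.88, scanpy 1.11.5 (Scrublet) and R 4.3.3 with edgeR 4.0.16 (TMM factors only) were used. Alternatives were other Epx and mitochondrial limits, leaving out doublets, other-lineage or deepest members, thinning, other scalings, UMI minimums and added constants.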

Additional observations from a re-analysis of the deposited data

How the results depend on the processing

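The share of Epx-positive cells ranged over the alternatives from 0.649 to 1.17% in the hypoxia library and 0.416 to 0.532% in the control library, and thinning to 5000 UMIs gave the lowest hypoxia value, 0.649%. Against 289 higher and 239 lower genes, thinning gave 91 and 79 of 768 genes compared, no minimum of UMIs 2009 and 1462 of 12107, a minimum of 200 UMIs 35 and 51 of 429, and 50 CPM added 158 and 136. Fewer or more genes entered under the first 3, and the larger constant pulls low genes toward 0. The other 16 alternatives stayed within 1.5 times for both counts. Of all these, 2 were chosen after seeing the data, totals without granule and mitochondrial genes and leaving out deepest, doublet-called and other-lineage members together. The last left 61 hypoxia and 17 control members, in which primary granule genes were lower in 6 of 7, receptors higher in 4 of 9, regulators higher in 0 and lower in 1 of 8, basophil and mast cell genes higher in 1 and lower in 1 of 5, NADPH oxidase genes higher in 4 of 8, and chemokines higher in 1 and lower in 3 of 4.

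Gata2 reversed, to -0.071 with Epx at least 50 per 10000, -1.41 without other-lineage members, -0.043 as a mean of per-cell CPM and -1.32 in the joint exclusion. Mcpt8 reversed to -0.015 without other-lineage members, and the basophil and mast cell median to -0.31 there and -0.27 in the joint exclusion. Mrpl51 reversed to 0.29 after thinning, and the stem cell median to -0.18 with no minimum of UMIs. Beyond what removing cells shows by construction, the cause was not tested. Of the other log2 ratios and list medians, 3559 and 412 stayed close and 155 and 53 moved. A gene counted as close when its shift was no larger than the reach of its own counting interval to either side. A list median had a fixed limit below 1.5-fold. Intervals of genes with few UMIs are wide, so these counts do not measure stability. Siglecf, at 0.73 as reported and 0.097 after thinning, counted as close. Values reported short of 1.5-fold also changed sign, in 33 of the moved log2 ratios and 16 of the moved medians, and in 163 and 23 of those that stayed close. Thinning took the NADPH oxidase median to -0.29, chemokines to 0.27 and Itga2b of the megakaryocyte list to -0.45. No paired analysis was possible because each group had 1 library. Depth limits genes under 50 UMIs, among them Ccr3 and Alox15.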
